A study of Mus musculus with 4 samples.

Results

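Htr4, Htr6 and Htr7 code for the serotonin receptors 5-HT4, 5-HT6 and 5-HT7, the serotonin receptors that couple to the stimulatory G protein Gs. The 3 genes were taken by symbol from the 32287 features of a single-nucleus RNA sequencing matrix of mouse medial prefrontal cortex, and their counts were followed across cell classes named from marker genes. The feature list holds 14 serotonin receptor genes, so these are 3 of 14 members of the family. The labels give 4 samples of nuclear RNA from C57BL/6J mice, 9 weeks old, with tissue taken 24 hours after an injection. DOI, a psychedelic that acts on 5-HT2 receptors, had been given in 2 samples (1 female, 1 male), and saline in the other 2 samples (1 female, 1 male). All 4 samples, saline ones included, carried scFLARE2, which couples calcium and light to transcription, and the reporter TRE-mCherry-p2a-bReaChES; the promoters that drive scFLARE2 are not given in the sources used here. Whether a sample is 1 animal is not given either.

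The barcodes fall into 4 libraries, called libraries 1 to 4 here, and nothing in the files ties a library to a sample. The matrix therefore stands for 1 sample: DOI was not compared with saline, nor female with male. The 4 libraries serve only to show how far a level varies. After filtering, 12981 nuclei remained, with library medians of 7290 to 10314 UMIs (molecular identifiers, so that copies of 1 captured RNA count once). Of the retained barcode sequences, 17 occurred in more than 1 library. Neuronal transcripts were also found in glia: Slc17a7, which loads glutamate into synaptic vesicles of excitatory neurons, reached 152 CPM (the UMIs of a gene per 1000000 UMIs of the class) in astrocyte-like nuclei and 232 CPM in microglia-like nuclei, against 188 to 275 CPM in excitatory classes. Low shares of nuclei with a UMI are therefore set beside those of glia below. Striatal medium spiny-like nuclei were unevenly spread, with 238 of 358 in library 1 and 4 in library 4.

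Serotonin released from raphe axons acts on 5-HT4, 5-HT6 and 5-HT7 receptors to activate Gs, which stimulates adenylyl cyclase and raises cyclic AMP. Cyclic AMP acts through protein kinase A and the Epac exchange factors, reaches the nucleus through the transcription factor CREB, and is broken down by phosphodiesterases. In cortical neurons this pathway is known for changing excitability and synaptic plasticity, in contrast to the Gi-coupled 5-HT1 receptors, which lower cyclic AMP.

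The promoters of Htr6 and Htr7 are shown for their motifs tied to Gs signalling and their base composition. Each is the 250 bases upstream of a RefSeq start in GRCm38.p6, chr4:139075571-139075820 for Htr6 and chr19:36057361-36057610 for Htr7, both read from the minus strand. Capitals mark matches to the motifs searched on both strands: the CRE core TGACG, the full CRE TGACGTCA, the E-box CACGTG and the GC box GGGCGG.
Htr6: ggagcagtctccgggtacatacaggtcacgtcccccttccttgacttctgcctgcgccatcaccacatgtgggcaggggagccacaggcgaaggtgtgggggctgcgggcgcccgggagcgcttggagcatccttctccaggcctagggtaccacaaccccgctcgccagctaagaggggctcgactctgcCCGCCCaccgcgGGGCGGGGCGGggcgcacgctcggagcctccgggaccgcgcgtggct
Htr7: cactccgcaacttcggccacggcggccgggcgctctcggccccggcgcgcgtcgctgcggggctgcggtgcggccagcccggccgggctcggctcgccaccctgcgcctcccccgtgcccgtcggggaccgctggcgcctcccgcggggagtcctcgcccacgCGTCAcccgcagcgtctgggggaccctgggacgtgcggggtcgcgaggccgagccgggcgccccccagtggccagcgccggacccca

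The Htr7 window held 1 CRE core, as CGTCA at -87 from the start, and no other match. Of this window, 147 bases, the CRE core among them, lie inside the Htr7 gene as the GENCODE annotation draws it, which starts farther upstream. The Htr6 window held 3 GC boxes, at -59, -47 and -42, of which the last pair share 1 base, and no CRE core. A second RefSeq start of Htr6, whose window at chr4:139074790-139075039 lies inside the gene, had no match, 9 CpG sites and 55.2% G or C. Among 32817 promoters of the same length, 17.75% held a CRE core, 1.548% a full CRE, 6.021% an E-box and 32.72% a GC box. The Htr7 window was 82.0% G or C with 41 CpG sites, more than 98.91% of promoters, and the Htr6 window shown was 70.8% G or C with 23 CpG sites, more than 86.69%. The medians over all promoters were 52.4% and 6 CpG sites. These matches describe letters, not binding.

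In the GRCm38 annotation, Htr4 (ENSMUSG00000026322) spans 172 kb of chromosome 18 at 62324204 to 62496577 on the plus strand. Htr6 (ENSMUSG00000028747) spans 14.5 kb of chromosome 4 at 139061108 to 139075570 on the minus strand, and Htr7 (ENSMUSG00000024798) spans 98.8 kb of chromosome 19 at 35958734 to 36057507 on the minus strand. All 3 are protein-coding, and no other annotated gene overlaps any of them, so their counts are not shared with a neighbour.

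Over all retained nuclei Htr4 was the most abundant of the 3 genes, with 4250 UMIs in 1536 nuclei (11.8%). Htr7 had 855 UMIs in 569 nuclei (4.38%), and Htr6 had 216 UMIs in 211 nuclei (1.63%). Levels of different genes were compared per kilobase of gene span, since nuclear RNA holds introns. On that scale Htr4 stood at 0.194 CPM per kb, Htr6 at 0.117 CPM per kb and Htr7 at 0.0680 CPM per kb, so Htr6 and Htr7 change places relative to their raw counts. Per kb of the longest transcript they did not, with Htr4 at 7.16, Htr7 at 2.13 and Htr6 at 0.724 CPM per kb, and whether introns were counted is not given in the sources used here. In all, 2192 nuclei (16.9%) held a UMI of at least 1 of the 3 genes, and 123 held UMIs of at least 2 of them.

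The 3 genes had separate patterns across classes. Htr4 was concentrated in near-projecting neurons, Vip interneurons and extratelencephalic neurons. Htr7 was highest in interneurons, Vip-like ones above the others, and among named excitatory classes in layer 6 corticothalamic neurons. Htr6 was scarce everywhere. Of the Htr4 UMIs, 36.0% lay in layer 5 extratelencephalic-like (L5 ET-like) nuclei and 34.2% in layer 5/6 near-projecting-like (L5/6 NP-like) nuclei, which made up 7.52% and 3.37% of nuclei. Of the Htr7 UMIs, 27.7% lay in layer 6 corticothalamic-like (L6 CT-like) nuclei and 13.8% in Vip-like nuclei, which made up 18.7% and 1.86% of nuclei.

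**Figure D1:**
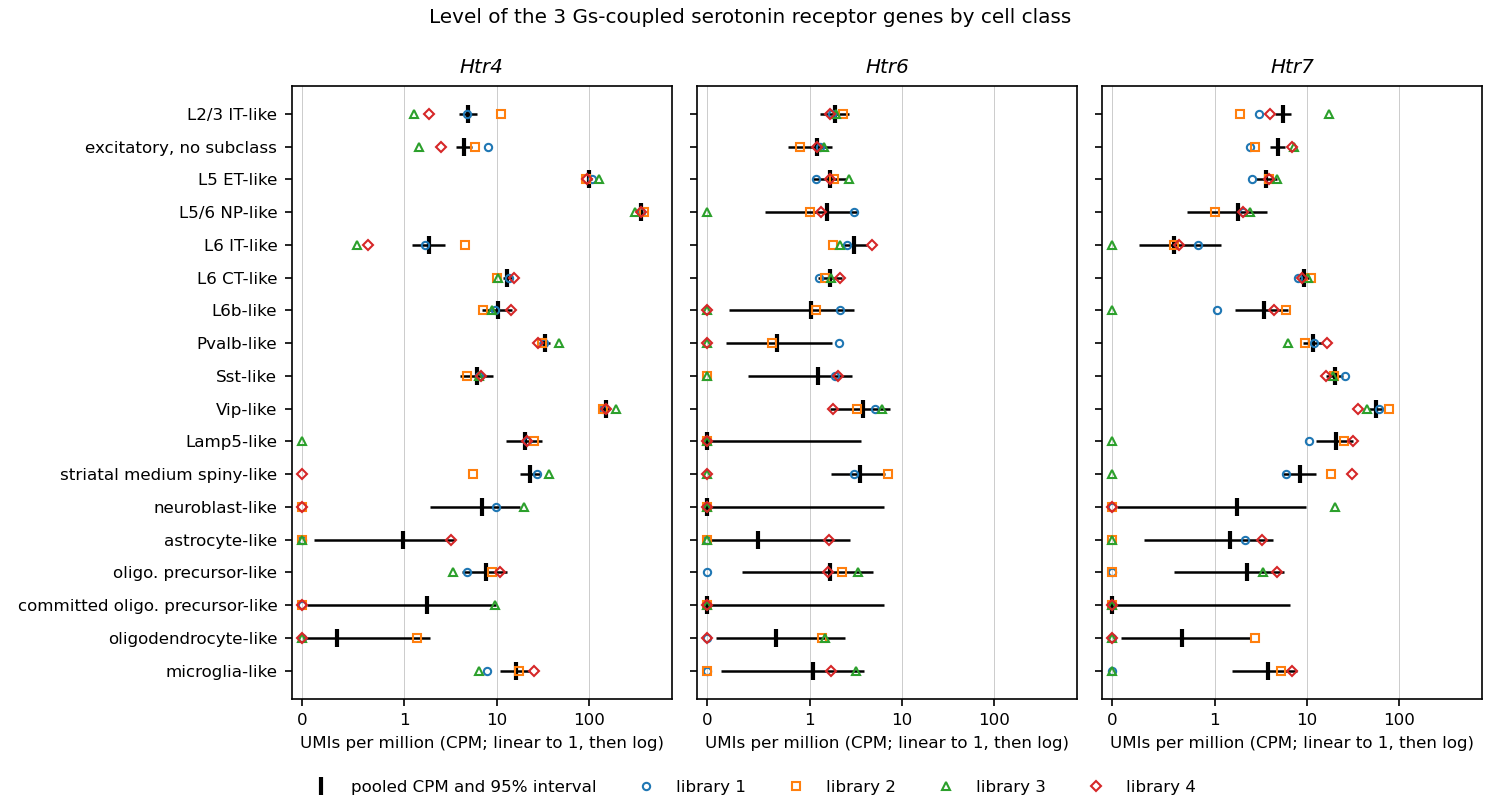
Level of Htr4, Htr6 and Htr7 (CPM, linear to 1 and logarithmic above) in 18 cell classes; black marks are the pooled level with its exact Poisson 95% interval and coloured symbols are the 4 libraries. Htr4 stands highest in L5/6 NP-like nuclei (374 CPM), Htr7 in Vip-like nuclei (56.7 CPM), and no pooled Htr6 level passes 3.84 CPM.

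Htr4 codes for the 5-HT4 receptor. Its level in L5/6 NP-like nuclei was 374 CPM (exact Poisson 95% interval 355 to 394), with 371, 402, 318 and 373 CPM in libraries 1 to 4. In Vip-like nuclei it was 155 CPM (139 to 173), with 142, 144, 201 and 155 CPM. In L5 ET-like nuclei it was 102 CPM (97.2 to 108), with 109, 92.9, 130 and 95.9 CPM. All 4 libraries of the near-projecting class lay above all 4 of the Vip-like class, and these above all 4 of L5 ET-like nuclei. Library 3 was the highest in Vip-like and L5 ET-like nuclei and the lowest in near-projecting ones. Pvalb-like nuclei came next at 33.2 CPM, with libraries from 28.2 to 47.1 CPM, below every library of the 3 classes above. From there down, each class overlapped its neighbour in the order by the range of libraries. Intervals here and below take in counting error alone and leave out any spread between animals.

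The lower Htr4 levels ran from 23.1 CPM in striatal medium spiny-like nuclei and 20.6 CPM in Lamp5-like nuclei to 13.1 CPM in L6 CT-like, 10.3 CPM in L6b-like and 6.14 CPM in Sst-like nuclei. Intratelencephalic classes were lower still, with 4.95 CPM in L2/3 IT-like and 1.87 CPM in L6 IT-like nuclei, and excitatory nuclei of no named subclass had 4.47 CPM. Library 2 carried both intratelencephalic levels: without it they were 2.62 CPM in L2/3 IT-like and 0.994 CPM in L6 IT-like nuclei, and 12 of the 25 L6 IT-like UMIs lay in 1 nucleus. Astrocyte-like nuclei had 0.986 CPM, oligodendrocyte-like nuclei 0.338 CPM and oligodendrocyte precursor-like nuclei 7.76 CPM on 14 UMIs. Microglia-like nuclei showed 16.3 CPM, but 26 of their 30 Htr4 UMIs lay in the 52 nuclei with 5000 or more UMIs. Those nuclei had 40.8 CPM, against 3.31 CPM in the 498 shallower microglia-like nuclei.

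Against the other named excitatory classes, Htr4 was 13.8-fold higher in L5/6 NP-like nuclei (374 CPM against 27.1 CPM; log2 ratio 3.79, exact binomial 95% interval 3.69 to 3.89). The words called higher or called lower stand for a fixed rule of size and carry no test: a minimum of 100 UMIs over both sides, a ratio of 2 or more or of 0.5 or less, and the same sign in all 4 libraries. Of 14771 genes measured in excitatory classes, 4.43% were called higher and 9.21% lower in near-projecting nuclei, where 1 of the 3 receptors was called in each direction. Htr7, at 1.80 CPM against 5.48 CPM, was the lower one (log2 ratio -1.60, -2.93 to -0.55), on 7 UMIs in near-projecting nuclei; that call was lost after thinning (log2 ratio -1.85) and at a 1% mitochondrial limit (-1.70). L6 CT-like nuclei, with 9.30 CPM of Htr7, stand in the reference of that Htr7 comparison. Htr6 was not called, with 6 UMIs.

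Htr4 was also called higher in L5 ET-like nuclei, 3.34-fold (102 CPM against 30.6 CPM; log2 ratio 1.74, 1.64 to 1.84). It was the only 1 of the 3 receptors called there, where 3.02% of genes were called higher and 6.4% lower. In the remaining excitatory classes Htr4 was called lower in each. The log2 ratio was -4.83 in L6 IT-like nuclei (1.87 CPM against 53.1 CPM), where 2.24% of genes were called higher and 4.54% lower, and -3.49 in L2/3 IT-like nuclei (4.95 CPM against 55.6 CPM), where 4.44% were called higher and 5.39% lower. It was -2.18 in L6 CT-like nuclei (13.1 CPM against 59.5 CPM), where 2.48% and 7.22% were, and -2.15 in L6b-like nuclei (10.3 CPM against 45.7 CPM), where 2.84% and 9.65% were. The near-projecting and extratelencephalic nuclei stand in the reference of these 4 comparisons, so the 4 calls are not independent of the 2 higher ones.

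Most near-projecting nuclei carried Htr4. A UMI was found in 347 of 438 (79.2%, Clopper-Pearson 95% interval 75.1% to 82.9%), in 546 of 976 L5 ET-like nuclei (55.9%) and in 105 of 242 Vip-like nuclei (43.4%). Since L5 ET-like nuclei were the deepest of these, with a median of 13903 UMIs against 8173 in near-projecting and 7571 in Vip-like nuclei, shares were also taken after thinning each nucleus to 1500 UMIs. They were then 37.0% in near-projecting, 21.2% in Vip-like and 14.2% in L5 ET-like nuclei, the same order as the CPM. In astrocyte-like nuclei, with a median of 3698 UMIs, the share was 0.391% unthinned and 0.200% thinned. In microglia-like nuclei, with a median of 2417 UMIs, it was 2.18% and 0.606%. The thinned shares of L2/3 IT-like (0.615%), L6 IT-like (0.445%) and Sst-like nuclei (0.466%) lay above that of astrocyte-like nuclei and close to or below that of microglia-like nuclei, so over these whole classes Htr4 was not told apart from background by share. A part of the L2/3 IT-like class stood far above that level. The Sst-like CPM (3.97 to 9.06) lay above the interval of astrocyte-like nuclei, whose upper end was 3.56 CPM. It overlapped that of oligodendrocyte precursor-like nuclei, at 7.76 CPM (4.245 to 13.03) with a thinned share of 0.524%. The thinned L6 CT-like share, 1.78%, was above the thinned shares of these glial classes.

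**Figure D2:**
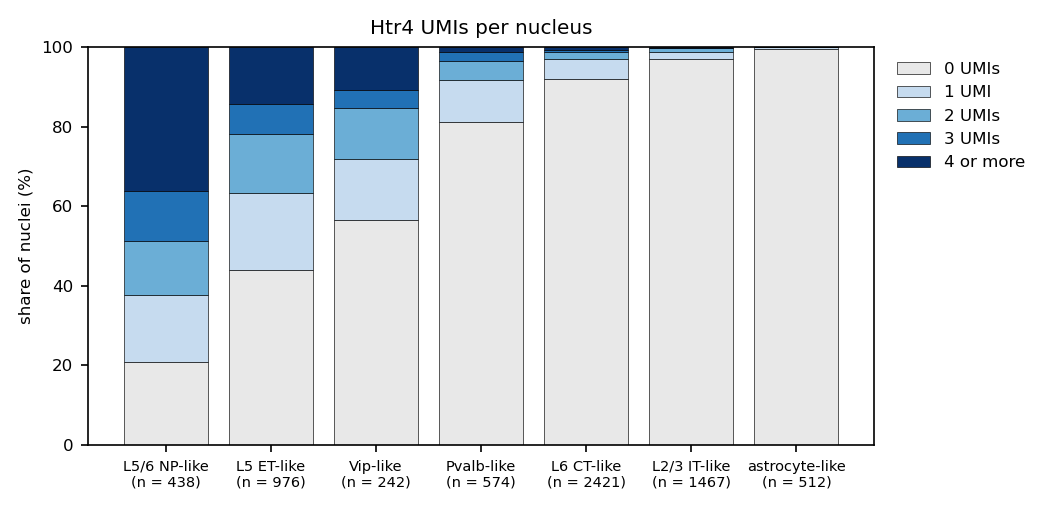
Share of nuclei (%) with 0, 1, 2, 3 or at least 4 Htr4 UMIs in 7 classes, with the number of nuclei under each bar. In L5/6 NP-like nuclei 91 of 438 had none and 158 had at least 4, while in astrocyte-like nuclei 510 of 512 had none.

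Within the near-projecting class Htr4 varied from 0 to 19 UMIs per nucleus, and 27 nuclei had at least 10. The near-projecting class stayed a single cluster at the finer resolution and so gave no parts to compare. Htr2c, which codes for a Gq-coupled serotonin receptor, was the most abundant serotonin receptor gene of these nuclei per kb of span, at 3.60 CPM per kb, followed by Htr2b at 2.86 and Htr4 at 2.17 CPM per kb, rank 3 of 14; Psmd1 overlaps Htr2b on the other strand. Htr2c stood at 1036 CPM in the 158 nuclei with 4 or more Htr4 UMIs, 731 CPM in the 189 nuclei with 1 to 3, and 655 CPM in the 91 with none. The median depth moved with it (9498, 7755 and 6526 UMIs), and the part of depth in this was not tested. Of the Htr4-positive nuclei 85.3% also held Htr2c, against 78.0% of the Htr4-negative ones.

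Htr4 differed between parts of the L5 ET-like class. A cluster of 117 nuclei led by Npsr1, found at a finer resolution, had 22.6 CPM, against 117 CPM in the 772 nuclei of the cluster led by L3mbtl4 (log2 ratio -2.37, -2.85 to -1.93). By library the Npsr1-led nuclei had 15.3, 24.1, 89.0 and 17.2 CPM, with only 5 nuclei in library 3, and the L3mbtl4-led nuclei 121, 107, 135 and 115 CPM. The ranges of the libraries did not overlap. Within the L2/3 IT-like class, 66 of the 86 Htr4 UMIs lay in 80 nuclei of a cluster led by Ndst4 and Zfp536, at 65.5 CPM, against 1.22 CPM in the other 1387 (log2 ratio 5.74, 5.004 to 6.55). Of these 80 nuclei, 74 came from libraries 1 and 2. The same finer cluster held 74 L5 ET-like nuclei, which had 81.4 CPM, so the class of its members is uncertain. These clusters, and those below, were picked after their values were seen and are given as descriptions; the serotonin receptor and pathway genes were kept out of the clustering.

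Htr7 codes for the 5-HT7 receptor. In Vip-like nuclei it stood at 56.7 CPM (46.9 to 67.9), with 60.9, 77.6, 45.6 and 35.9 CPM in libraries 1 to 4. It was 20.6 CPM in Lamp5-like nuclei on 21 UMIs, with none in library 3. In Sst-like nuclei it was 20.1 CPM (16.0 to 24.99), with 26.1, 19.9, 19.3 and 16.2 CPM. The lowest Vip-like library lay above every library of the Lamp5-like and Sst-like classes; below Vip-like nuclei each class overlapped its neighbour in the order. Pvalb-like nuclei had 11.8 CPM and L6 CT-like nuclei 9.30 CPM, with 8.10, 11.0, 10.3 and 8.78 CPM. The remaining excitatory levels ran from 5.59 CPM in L2/3 IT-like nuclei down to 0.599 CPM in L6 IT-like nuclei, and glial classes had 0 to 3.79 CPM.

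Excitatory nuclei as a whole had less Htr7 than inhibitory ones, 5.20 CPM against 22.3 CPM (log2 ratio -2.10, -2.31 to -1.89). Their libraries lay at 3.801, 4.52, 8.69 and 5.396 CPM, against 24.9, 25.7, 16.2 and 19.99 CPM in inhibitory nuclei. Htr7 was the only receptor of the 3 called in this comparison, where 9.13% of genes were called higher and 7.51% lower. Htr4, at 35.4 CPM in excitatory against 43.2 CPM in inhibitory nuclei (log2 ratio -0.29, -0.42 to -0.16), was below the size needed for a call, as was Htr6, at 1.77 against 1.31 CPM (log2 ratio 0.44, -0.28 to 1.25). Cortical neurons against non-neuronal nuclei were called higher for Htr4 (36.3 against 5.49 CPM; log2 ratio 2.72) and Htr7 (7.16 against 1.64 CPM; log2 ratio 2.13), where 12.9% of genes were called higher and 24.6% lower. Htr6 was not called there, at 1.72 against 1.06 CPM (log2 ratio 0.69, -0.18 to 1.72).

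Among the named neuronal classes, Vip-like interneurons were the one in which both Htr4 and Htr7 were called higher. Against the other named inhibitory classes Htr4 was 7.07-fold higher (155 against 21.9 CPM; log2 ratio 2.82, 2.58 to 3.07) and Htr7 3.60-fold higher (56.7 against 15.7 CPM; log2 ratio 1.85, 1.499 to 2.20). That is 2 of the 2 receptors with enough UMIs, in a comparison where 3.52% of genes were called higher and 6.11% lower. Htr6, on 8 and 9 UMIs, was too sparse to be called. Both calls were lost at a 1% mitochondrial limit, which left 57 Vip-like nuclei, and that of Htr7 after thinning (log2 ratio 1.26). In Pvalb-like nuclei Htr7 was called lower (11.8 against 30.8 CPM; log2 ratio -1.38, -1.79 to -0.99), where 3.48% of genes were called higher and 5.14% lower. That call was lost where no Vip-like class was named (log2 ratio -0.75 at a 20% mitochondrial limit and -0.77 at resolution 0.5) and after thinning (-0.88). In Sst-like nuclei Htr4 was called lower (6.14 against 60.1 CPM; log2 ratio -3.29, -3.93 to -2.72), where 2.48% and 3.96% were. In Lamp5-like nuclei Htr4 was called lower as well (20.6 against 45.2 CPM; log2 ratio -1.14, -1.84 to -0.51), where 3.58% and 7.58% were, on 21 UMIs. Vip-like nuclei stand in the reference of these 3 comparisons. The Lamp5-like call was lost without library 3, where that class had no Htr4 UMI in 10 nuclei (log2 ratio -0.87).

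Among excitatory classes Htr7 was called higher in L6 CT-like nuclei alone, 2.77-fold (9.30 against 3.35 CPM; log2 ratio 1.47, 1.18 to 1.76), where 2.48% of genes were called higher. The reference libraries lay at 2.10, 2.33, 8.75 and 2.97 CPM, so library 3 stood close to the 10.3 CPM of its L6 CT-like nuclei while the others stood far below. With library 3 left out the log2 ratio was 1.87. The call was lost at resolution 2.0, where no L6 IT-like class was named (log2 ratio 0.80), and after thinning (1.49). Htr7 was called lower in L6 IT-like nuclei (0.599 against 6.27 CPM; log2 ratio -3.39, -4.61 to -2.40), with L6 CT-like nuclei in the reference. Htr7 was found in 171 of 2421 L6 CT-like nuclei (7.06%), and in 1.33% after thinning, against 0.404% in thinned microglia-like and 0.200% in thinned astrocyte-like nuclei. The thinned shares of L5/6 NP-like (0.228%) and L5 ET-like nuclei (0.412%) were at about the glial level. By share, Htr7 was not told apart from background in these classes. The microglia-like share rests on 2 nuclei. The L5 ET-like level was 3.61 CPM (2.71 to 4.705). It lay above the interval of oligodendrocyte-like nuclei (0.0818 to 2.44 CPM) and overlapped that of astrocyte-like nuclei (0.305 to 4.32 CPM).

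In L2/3 IT-like nuclei the Htr7 level rested on 1 library, with 2.99, 1.88, 17.3 and 4.03 CPM in libraries 1 to 4. Without library 3 the pooled level was 3.02 CPM instead of 5.59 CPM. The cluster led by Baz1a had 7.46 CPM over 688 nuclei, against 0.824 CPM over the 562 nuclei led by Glis3 (log2 ratio 3.18, 1.88 to 4.85). Its libraries had 3.33, 3.47, 17.4 and 4.79 CPM, against 0, 0.490, 2.97 and 1.03 CPM in the Glis3-led nuclei. The difference held its direction in each library, and library 3 was the highest on both sides. Without library 3 the levels were 3.97 against 0.556 CPM (log2 ratio 2.84, 1.13 to 5.21). Among excitatory nuclei of no subclass, those led by Scn7a had 8.12 CPM of Htr7, against 2.55 CPM in those led by Pld5 (log2 ratio 1.67, 0.91 to 2.51). Without library 4 these were 5.03 against 2.62 CPM, and the interval of the ratio included 0 (log2 ratio 0.94, -0.11 to 2.10). Among L6 CT-like nuclei those led by Cpa6 had 11.3 CPM, against 7.24 CPM in those led by Eya4 (log2 ratio 0.65, 0.22 to 1.09), with 1 of the 4 libraries in the other direction, and without library 4 the interval included 0 (log2 ratio 0.36, -0.16 to 0.90).

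In the Sst-like class, 33 of the 82 Htr7 UMIs came from 27 nuclei led by Tacr1, Chodl and Nos1, genes known from long-range projecting Sst neurons. These nuclei had 132 CPM, against 12.8 CPM in the other 403 Sst-like nuclei (log2 ratio 3.36, 2.68 to 4.03), and no Htr4 UMI, against 25 Htr4 UMIs in the others. Htr7 was higher in the Chodl-led nuclei in all 4 libraries, of which library 3 held only 2 of them. The log2 ratio was 4.28 without library 1 and 2.67 without library 4. Left without them, the Sst-like class had an Htr7 level of 12.8 CPM.

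**Figure D3:**
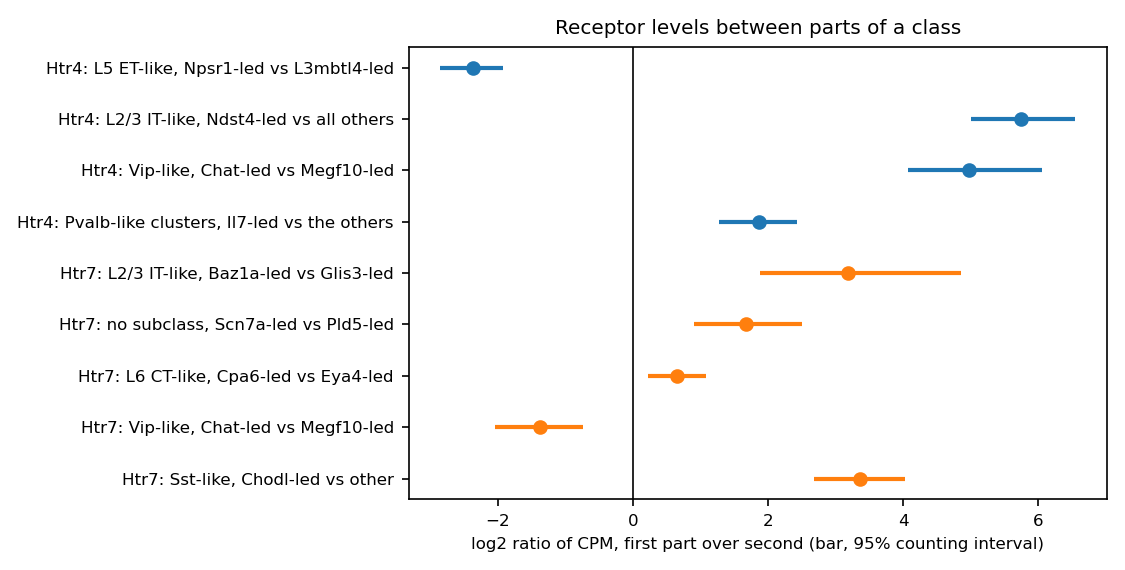
Log2 ratio of CPM between clusters of the same class for Htr4 (blue) and Htr7 (orange), with exact 95% counting intervals; values above 0 mean higher in the cluster named first. The ratios run from -2.37 for Htr4 in Npsr1-led against L3mbtl4-led L5 ET-like nuclei to 5.74 in Ndst4-led against other L2/3 IT-like nuclei.

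Htr4 and Htr7 ran in opposite directions between the main clusters of Vip-like interneurons. When the 1352 inhibitory nuclei were clustered alone, into 16 clusters, most Vip-like nuclei fell into a cluster of 111 led by Chat, Angpt1 and Slc5a7 and a cluster of 87 led by Megf10, Frem1 and Cadps2. Chat codes for the enzyme that makes acetylcholine. Htr4 was 357 CPM in the Chat-led nuclei, with 525, 321, 350 and 299 CPM in libraries 1 to 4, against 11.4 CPM in the Megf10-led nuclei, with 12.8, 23.1, 0 and 0 CPM. That is 31.4-fold higher on 281 and 10 UMIs (log2 ratio 4.97, 4.07 to 6.05), and a UMI was found in 83 of the 111 Chat-led and 7 of the 87 Megf10-led nuclei. Htr7 ran the other way, at 35.5 CPM in Chat-led nuclei (21.3, 65.1, 35.6 and 16.1 CPM) against 92.0 CPM in Megf10-led nuclei (99.3, 112, 78.9 and 61.5 CPM). Its log2 ratio was -1.37 (-2.05 to -0.74), with the Chat-led level the lower one in each library, while the ranges over libraries overlapped. By the rule for calls Htr4 was higher and Htr7 lower, where 6.0% and 6.91% of 2852 genes were called higher and lower. Htr6 had 2 UMIs in Chat-led and 6 in Megf10-led nuclei. The Chat-led nuclei were shallower, with a median of 6384 UMIs against 8965.

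**Figure D4:**
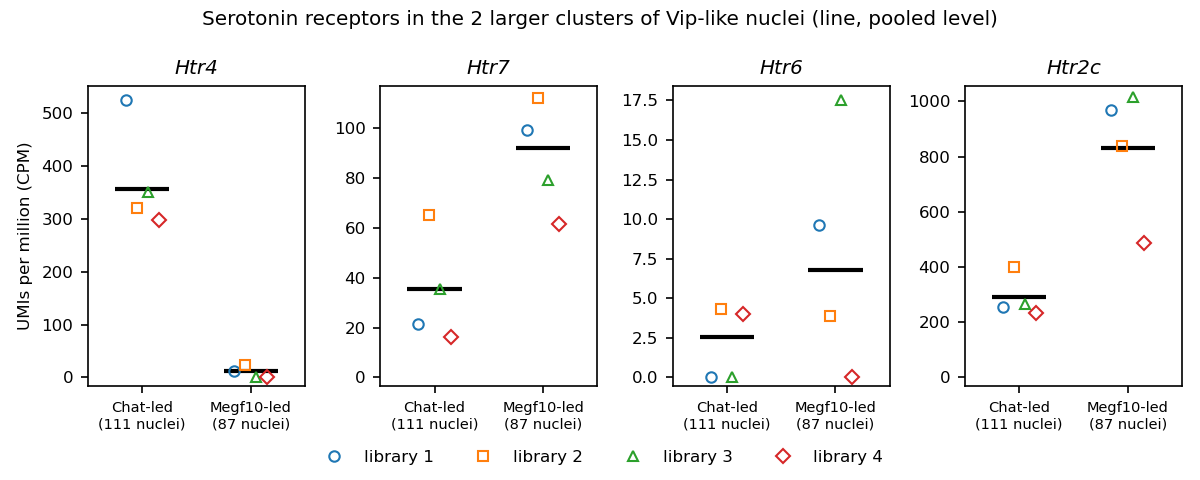
Level (CPM) of Htr4, Htr7, Htr6 and Htr2c in the Chat-led and Megf10-led clusters of Vip-like nuclei; symbols are the 4 libraries and the line is the pooled level. Htr4 is at 299 CPM or more in every library of the Chat-led nuclei and at 23.1 CPM or less in the Megf10-led nuclei; Htr7 and Htr2c are higher in the Megf10-led nuclei in each library.

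Of 4 other serotonin receptor genes compared in these clusters, 3 had lower levels in Chat-led nuclei in each library. Htr2c had 293 CPM in Chat-led against 830 CPM in Megf10-led nuclei, Htr2a 15.2 against 42.0 CPM, and Htr3a, a subunit of the serotonin-gated channel, 12.7 against 29.5 CPM. Htr1f stood at 45.7 CPM in Chat-led against 44.3 CPM in Megf10-led nuclei (log2 ratio 0.05, -0.65 to 0.74). Nuclei with both Htr4 and Htr7 numbered 17 in the Chat-led and 4 in the Megf10-led cluster. Over all Vip-like nuclei 25 held both. Htr7 was found in 23.8% of the Htr4-positive nuclei and in 26.3% of the Htr4-negative ones, shares that mix clusters differing in both genes. In the Chat-led cluster Htr7 was found in 17 of 83 Htr4-positive nuclei and in 21 of all 111. In the Megf10-led cluster it was found in 4 of 7 Htr4-positive nuclei and in 34 of all 87. Per kb of span Htr4 had rank 4 of 14 serotonin receptor genes in Vip-like nuclei, at 0.8997 CPM per kb, and Htr7 rank 6, at 0.574 CPM per kb. A further cluster of 56 nuclei with Ndnf among its leading genes, 32 of them Vip-like, had 60.0 CPM of Htr4. In Pvalb-like clusters Htr4 was highest in 41 nuclei led by Il7 and Pth2r, at 103 CPM (98.8, 117, 102 and 91.3 CPM), against 28.1 CPM in the other 516 nuclei (26.5, 24.8, 46.1 and 22.5 CPM). The log2 ratio was 1.87 (1.27 to 2.42), and the libraries did not overlap. Of these 41 nuclei 39 were in the Pvalb-like class. Pvalb itself stood at 12.4 CPM in them, against 28.4 to 58.9 CPM in the larger Pvalb-like clusters, so their class is uncertain.

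Htr6, which codes for the 5-HT6 receptor, was the sparsest of the 3. Its highest levels were 3.84 CPM in Vip-like nuclei on 8 UMIs, 3.56 CPM in striatal medium spiny-like nuclei on 10 UMIs and 3.07 CPM in L6 IT-like nuclei on 41 UMIs. L6 IT-like libraries had 2.52, 1.81, 2.15 and 4.75 CPM, and every neighbour in the order of classes overlapped. L2/3 IT-like nuclei had 1.90 CPM (33 UMIs), L6 CT-like 1.69 CPM (43 UMIs) and L5 ET-like nuclei 1.67 CPM (25 UMIs). Against the other excitatory classes L6 IT-like nuclei had a log2 ratio of 0.85 (0.30 to 1.38; 3.07 against 1.70 CPM), higher in all 4 libraries and below the size needed for a call. After thinning, Htr6 was found in 0.712% of L6 IT-like nuclei and in 0% to 0.262% of astrocyte-like, microglia-like, oligodendrocyte-like and oligodendrocyte precursor-like nuclei. Lamp5-like nuclei held no Htr6 UMI, with an exact Poisson upper limit of 3.61 CPM. Striatal medium spiny-like nuclei against cortical neurons had none of the 3 receptors called, where 2.79% of genes were called higher and 13% lower. No comparison called Htr6, and most differences between classes were not detectable at this depth.

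Across the 17 named classes of at least 50 nuclei, the log2 levels of Htr4 and Htr7 had a Pearson correlation of 0.51, Htr4 and Htr6 of 0.36, and Htr6 and Htr7 of 0.32. These values are descriptions over 17 classes that share libraries, depth and free RNA. The genes whose levels ran most like Htr4 over the same classes were Dcdc2a (r = 0.788), Nudcd1 (0.781), Apip (0.780), Faf1 (0.780) and Zmat4 (0.779), of 10756 genes. For Htr7 they were Frmpd3 (0.844), Tmem130 (0.833), Clstn3 (0.814), Cit (0.805) and Col26a1 (0.803). For Htr6 they included Npy5r (0.868), which codes for a neuropeptide Y receptor, Gzmk (0.820) and Capn1 (0.771). By Spearman correlation Faf1, Cit and Npy5r ranked first for their receptor, while Apip ranked 31 and Capn1 92. Other annotated genes overlap Dcdc2a, Nudcd1, Faf1, Zmat4, Cit, Col26a1, Gzmk and Capn1, so part of their counts may belong to a neighbour.

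The genes that carry a Gs signal were followed in 7 lists with 45 genes in all. In L5/6 NP-like nuclei 3 of the 43 with enough UMIs were called higher and 5 lower, against 4.43% and 9.21% of all genes, and their median log2 ratio was 0.12 beside 0.10 over all genes. Rapgef3, which codes for the cyclic AMP sensor Epac1, had 42.2 CPM in near-projecting nuclei against 0.85 CPM in the other excitatory classes (log2 ratio 5.63, 5.21 to 6.08); 2 annotated antisense genes overlap it, and whether counting used strand is not given in the sources used here. Among the 8 adenylyl cyclases with enough UMIs, which make cyclic AMP, Adcy2 was called higher (1933 against 533 CPM; log2 ratio 1.86) and so was Adcy8 (261 against 79.2 CPM; log2 ratio 1.72). Adcy5 was called lower (19.3 against 41.0 CPM; log2 ratio -1.09). Adcy2, Adcy5 and Adcy8 are also overlapped by other annotated genes, as are Gnal, Prkacb, Pde3a, Pde4d, Pde7b and Pde8b below, so their counts may hold reads of a neighbour. Of 13 phosphodiesterase genes, whose products act on cyclic nucleotides, 4 were called lower and none higher. The largest were Pde7b (3.35 against 114 CPM; log2 ratio -5.09), Pde1a (245 against 1012 CPM; log2 ratio -2.04) and Pde4d (884 against 2608 CPM; log2 ratio -1.56). No gene of Gs, protein kinase A, CREB or the receptor-binding partners was called.

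In L5 ET-like nuclei none of 43 pathway genes was called higher and 5 were called lower, against 3.02% and 6.4% of all genes, with a median log2 ratio of -0.08 beside -0.12 over all genes. Gnal, which codes for the Gs-like subunit Golf, had 32.1 CPM against 101 CPM in the other excitatory classes (log2 ratio -1.65). Pde7b (9.35 against 133 CPM; log2 ratio -3.83) and Rapgef3 (0.401 against 3.51 CPM; log2 ratio -3.13) were also lower. Pde1b had a log2 ratio of -1.85 and Pde8b of -1.73. Near-projecting nuclei, with 42.2 CPM of Rapgef3, stand in this reference. In L6 CT-like nuclei, where Htr7 was called higher, no pathway gene was called higher and 3 of 43 were called lower, against 2.48% and 7.22% of all genes. These were Adcy8 (39.5 against 112 CPM), Rapgef3 (0.902 against 3.89 CPM) and Pde7b (35.0 against 145 CPM). Near-projecting nuclei, in which Adcy8 and Rapgef3 were called higher, stand in this reference as well. How far they set these lower calls was not tested.

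In Vip-like nuclei 5 of 41 pathway genes were called higher and 2 lower, against 3.52% and 6.11% of all genes, and the median log2 ratio was 0.10 beside -0.07. Of 14 phosphodiesterase genes 4 were called higher and none lower. The largest were Pde3a (53.8 CPM against 6.68 CPM in the other inhibitory classes; log2 ratio 3.01), Pde4b (477 against 142 CPM; log2 ratio 1.74) and Pde7b (119 against 41.3 CPM; log2 ratio 1.53). Prkar2b, a regulatory subunit of protein kinase A, was called higher (118 against 56.7 CPM; log2 ratio 1.05) and Prkacb, a catalytic subunit, lower (68.7 against 157 CPM; log2 ratio -1.20). Adcy8 was called lower (113 against 273 CPM; log2 ratio -1.27). Pde7b thus stood on the high side in Vip-like nuclei and on the low side in near-projecting, L5 ET-like and L6 CT-like nuclei, each against its own reference.

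**Figure D5:**
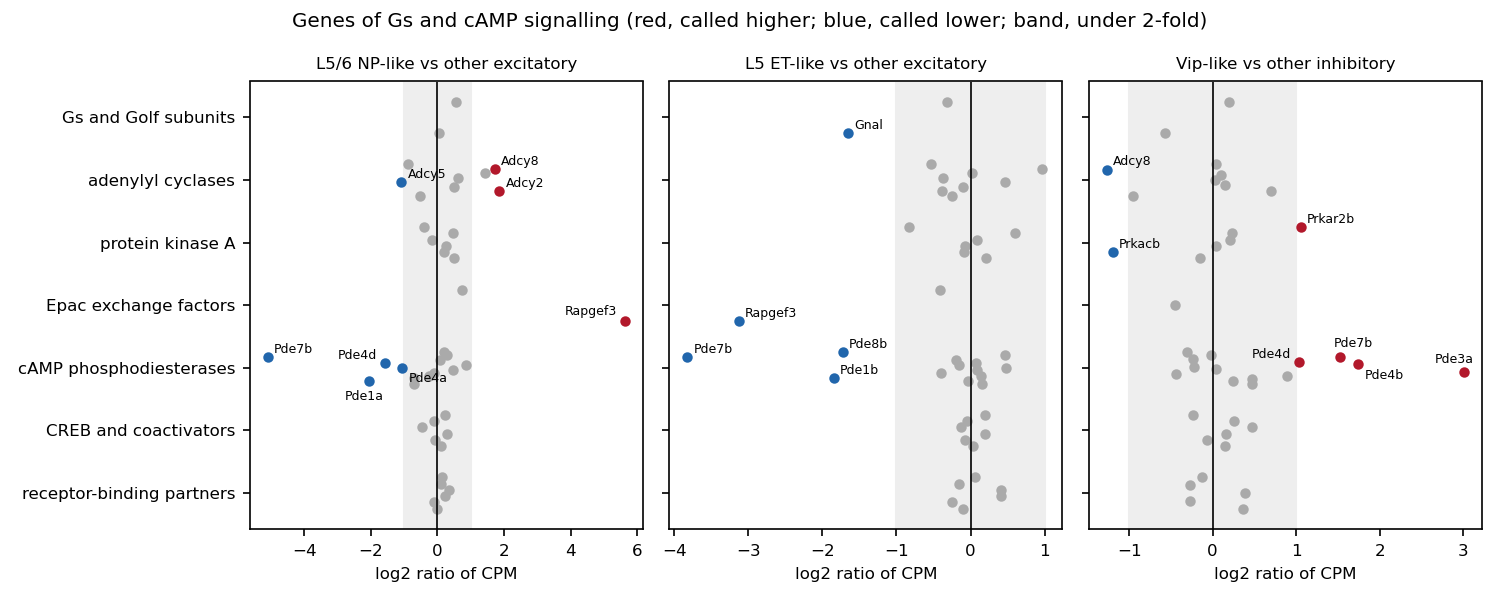
Log2 ratio of CPM of Gs and cyclic AMP pathway genes by list, in L5/6 NP-like and L5 ET-like nuclei against other excitatory classes and in Vip-like nuclei against other inhibitory classes. Red points were called higher, blue points lower, and the grey band marks ratios under 2-fold; of 43, 43 and 41 genes, 3, 0 and 5 were called higher and 5, 5 and 2 lower.

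The mCherry reporter gave a further split of nuclei, those with a TREmcherry UMI and those without, within the 5 excitatory classes that had at least 50 positive nuclei. In L6 CT-like nuclei Htr4 was 6.34 CPM in 219 reporter-positive nuclei, against 13.9 CPM in 2202 negative nuclei (log2 ratio -1.13, -1.93 to -0.43), on 17 and 317 UMIs. The median depth was 10890 UMIs in positive and 9702 in negative nuclei, and the part of depth in this was not tested. The reporter ratios were not split by library. In L5 ET-like nuclei Htr4 was 107 CPM in 92 positive and 102 CPM in 884 negative nuclei (log2 ratio 0.07, -0.17 to 0.30), and Htr7 was 6.85 against 3.22 CPM (log2 ratio 1.09, -0.01 to 2.07). For the other receptors and classes the interval of the ratio included 0, and Htr7 in L6 IT-like nuclei had no UMI on the positive side. Since nuclei of 1 matrix are not replicates, these splits carry no test.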

How the data were processed

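Nuclei of medial prefrontal cortex were profiled with 10x Genomics 3' chemistry. The authors deposited 1 pooled matrix of UMI counts per feature and barcode, made with Cell Ranger 7.1.0 on mm10 per the submitters' processing notes; counting of introns and use of strand are not given in the sources used here. Library totals ran from 19968985 to 57947155 UMIs.

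Limits of 500 genes and 800 UMIs from below and of 5% mitochondrial UMIs from above left 13270 of 22402 barcodes. Scrublet in scanpy 1.11.5 scored doublets per library, and 289 above 0.25 were removed. The 2000 most variable genes, without serotonin receptor, pathway, sex-linked and mitochondrial genes and transgenes, gave 30 components, a 15-neighbour graph and 25 Leiden clusters at resolution 1.0. Clusters were named from 30 marker lists by at least 3 enriched markers. Names mean likeness to a class and rest on clusters rebuilt here.

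UMIs were summed per class and divided by its total (CPM), with exact Poisson 95% intervals; ratios have exact conditional binomial and shares Clopper-Pearson intervals. No p-value was made. The rule for calls was tried on simulated counts that held counting error alone. They had no spread between libraries, so they cannot show how the rule behaves under such spread. Receptors were named throughout, pathway genes up to the 3 largest called per list and comparison, and alike genes by the 5 highest correlations of log2(CPM + 1) among genes with at least 500 UMIs; some of those for Htr6 are not reported here. The members and lists were chosen with earlier results of these data known. Alternatives were libraries left out, other mitochondrial, gene, doublet and UMI limits, resolutions of 0.5 and 2.0, thinning to 1500 UMIs and other means; those on deep microglia-like nuclei, mixed clusters, shared barcodes, the excitatory reference parts of a class without each library, and inhibitory nuclei clustered alone were added after seeing the data. Python 3.11.15, numpy 2.4.6, scipy 1.17.1, pandas 2.3.3 and matplotlib 3.10.9 were used.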

Additional observations from a re-analysis of the deposited data

Results flagged for a closer look

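Htr7 in L2/3 IT-like nuclei stood apart in library 3, at 17.3 CPM, against 2.99, 1.88 and 4.03 CPM in libraries 1, 2 and 4. The gap to the nearest library was 0.861 of the whole range, above the 95% limit of Dixon's test for 4 values. Of 18 levels examined this way, this was the only 1 past that limit, and chance marks about 1 in 20 such groups.

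Receptor UMIs were also present in the 7341 barcodes set aside for mitochondrial UMIs alone, which no comparison used. They held 257 Htr4 UMIs (10.4 CPM), 29 Htr6 UMIs (1.18 CPM) and 100 Htr7 UMIs (4.06 CPM), above the 3 counts that a count of 0 allows.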

How the results depend on the processing

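Of 704 log2 ratios recomputed under the alternatives, 669 were counted as unchanged. Some of these were fixed in advance, so the count overstates how far the ratios were tried. Leaving out a cluster cannot alter a ratio between other classes, and the UMI minima alter calls but not ratios. Called ratios counted so kept their call. The others stayed uncalled and either kept their sign or lay inside the interval of the main setting. No ratio was taken where a side had no UMI, as for Htr7 in neurons at 1% mitochondrial UMIs and in thinned L6 IT-like nuclei. The order of Htr4, with near-projecting, Vip-like and L5 ET-like nuclei first, held in every setting in which a Vip-like class was named. The near-projecting Htr4 log2 ratio ranged from 3.38 to 4.10 and that of L5 ET-like nuclei from 1.59 to 2.49. In the main setting, Sst-like nuclei had 3 of 41 pathway genes called higher and 2 lower. Striatal medium spiny-like nuclei had 7 of 44 called higher and 6 lower. The shares of all genes called are given above for the main setting alone, so counts under the alternatives have no such background here. With libraries left out in turn, the Lamp5-like Htr4 log2 ratio ran from -1.35 to -0.87. Pathway genes called higher in L5 ET-like nuclei then ran from 0 to 1, and those called lower in Sst-like nuclei from 0 to 3.

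At most 1% mitochondrial UMIs left 57 Vip-like nuclei, 1 of them in library 4. Log2 ratios that lost their call were then 1.32 (Htr4, neurons against non-neuronal nuclei), -1.70 (Htr7, near-projecting), -0.82 (Htr4, Lamp5-like), 2.07 and 2.60 (Htr4 and Htr7, Vip-like). Pathway genes called were 3 lower in near-projecting, 1 higher in L5 ET-like, 1 lower in Sst-like and 0 higher in striatal nuclei. At 20% mitochondrial UMIs and at resolution 0.5 no Vip-like or Lamp5-like class was named, so Sst-like nuclei alone were the reference; the Pvalb-like log2 ratio of Htr4 turned from -0.63 to 2.45 and 2.42, that of Htr7 was -0.75 and -0.77 without a call, and 0 genes were called lower in Sst-like nuclei. At resolution 2.0 Htr7 was not called in neurons (0.49) or L6 CT-like nuclei (0.80); a mixed cluster then put 30 Sst-like nuclei with 34 Htr7 UMIs among non-neuronal ones, and no L6 IT-like class was named.

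Thinned to 1500 UMIs, Htr7 lost its call in near-projecting (-1.85), L6 CT-like (1.49), Pvalb-like (-0.88) and Vip-like nuclei (1.26). Htr4 lost its call in Lamp5-like nuclei (-0.68). Pathway genes called higher were then 2 in L5 ET-like, 2 in Vip-like and 4 in striatal nuclei. In the main setting they were 0, 5 and 7. With doublets kept, the Lamp5-like Htr4 ratio was -0.83, 3 genes were called higher in Vip-like and 0 lower in Sst-like nuclei. A doublet limit of 0.15 and a minimum of 200 UMIs each left 1 gene called lower in Sst-like nuclei. Without the cluster joining L2/3 IT-like and L5 ET-like nuclei, 1 gene was called higher in L5 ET-like nuclei. The causes of these changes were not tested, also where a circumstance is named beside them.

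No paired analysis was possible because no column carries a sample or replicate number. With 1 pooled matrix, differences between animals cannot be measured, and depth limits Htr6 above all.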

Other observations

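With up to 20% mitochondrial UMIs a perivascular macrophage-like cluster of 97 nuclei appeared, led by Ifi203, Mrc1 and Atp8b4. It held 9 Htr7 UMIs in 6 nuclei, or 34.2 CPM, with 1 Htr4 UMI and no Htr6 UMI. This Htr7 level was the highest of the classes named in that setting. The Vip-like class, which stood highest for Htr7 in the main setting, was not named there. Mrc1 codes for the mannose receptor, which macrophages carry.

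Htr1f, a Gi-coupled serotonin receptor gene, was found in 62.2% of the 45 Htr4-positive L2/3 IT-like nuclei, against 24.9% of the Htr4-negative ones, and this followed the Ndst4-led cluster that also holds L5 ET-like nuclei. Inside that cluster Htr1f was found in 22 of 28 Htr4-positive nuclei (78.6%), against 40 of 52 Htr4-negative ones (76.9%). In the other L2/3 IT-like nuclei it was found in 6 of 17 Htr4-positive (35.3%), against 22.9% of 1370 Htr4-negative nuclei. In the Il7-led Pvalb-like nuclei, where Htr4 was high, Htr1f stood at 460 CPM, against 144 CPM in the other Pvalb-like clusters, while Htr2a stood at 3.11 CPM against 66.5 CPM. In L5 ET-like nuclei Htr2a was found in 17.2% of Htr4-positive nuclei, against 27.0% of Htr4-negative ones. The median depth was 15029 UMIs in the positive and 12986 in the negative nuclei. The parts of this class, which differ in Htr4, were not taken apart for Htr2a, and the cause was not tested. These values are descriptions of nuclei of 1 matrix, chosen after they were seen.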
